A study of Triticum aestivum with 4 samples.

Results

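The known-miRNA section of the deposited table was searched for miRNAs of the families miR1117 to miR1139 and of miR1435, miR1436, miR1439, miR5049, miR5174, miR5175, miR5180, miR5181, miR5203, miR5205, miR6197, miR6220 and miR6224. These are transposon-like families of grasses, many of them alike in sequence. The search found 35 miRNAs of 26 of these 36 numbers, among 282 known miRNAs, beside which 66 miRNAs are listed under wheat_miR names. All values came from crown tissue, the stem base that carries the shoot apical meristem, of the wheat cultivar Shimai 22 grown in the field. Crowns were collected from three-leaf plants, in winter dormancy, during spring green-up and when stems jointed, and these 4 stages are the groups compared. RNA of 3 biological replicates was pooled at each stage and sequenced as 1 small RNA library, so no difference between stages could be set against a spread between replicates. Levels are given in RPM, reads per 1000000 reads mapped to the wheat genome. The steps between low values placed the depth at 20533590 to 21888420 mapped reads per library, where 1 read is worth 0.0457 to 0.0487 RPM. Intervals given with values cover counting error only.

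Plant genomes hold many copies of miniature inverted-repeat transposable elements, short elements that carry no gene and end in inverted repeats. Those of the Stowaway type, abundant in cereals, share end sequences with CUCCGU on a strand and ACGGAG on the opposite strand. A transcript that runs through such an element can fold back into a hairpin, and copies transcribed in both directions can form double-stranded RNA. Dicer-like enzymes cut both kinds of RNA into small RNAs. Small RNAs of 24 nt are best known for guiding DNA methylation to transposons, and those of 21 nt for acting on transcripts. For several families of this kind it has been debated whether they are miRNAs or small interfering RNAs, and the table cannot separate these classes.

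Sequences with the shared element-end motif are shown first, because many of them overlap each other on the same or the opposite strand. Opposite strand here means the reverse complement of a sequence, and the strand of origin was not analysed. The motif searched was ACGGA or its reverse complement UCCGU, and it is in capitals here, with the other bases in lower case, 5′ to 3′. The sequences come from the deposited table.
miR5049d: agacaaauauuuaggaACGGA
miR5175a: acaaauauuuaggaACGGAgg
miR6224a-3p: aauauuuaggaACGGAgggag
miR5174a: UCCGUuccuaaauauuugucu
miR1122b-3p: agacuuauauuuaggaACGGA
miR6220-5p: UCCGUuccuaaauauaagucu
miR6224a-5p: UCCGUuccuaaauauaagucu
miR1127a: ucccUCCGUccggaaauacuuguc
miR1127b-3p: caaguauuuccggACGGAgggagu
miR1133: auacucccUCCGUccggaaauacu
miR1436: auuuugggACGGAgggaguaa
miR5181-3p: cacuuauuuugggACGGAggg
miR5205a: auaauuuuggaACGGAgggag
miR5205b: uuauauuaugggACGGAggga
The first 3 are the same stretch read from successive starts. miR5174a is the exact reverse complement of miR5049d. miR6220-5p and miR6224a-5p have the same sequence, which is the exact reverse complement of miR1122b-3p.

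The motif was present in 21 of the 35 miRNAs (60%), 14 with ACGGA and 7 with UCCGU. Among the 313 other listed miRNAs it was present in 14 (4.47%). The longer form named above, ACGGAG or CUCCGU, was present in 16 of the 35 (45.7%) and in 4 of the other 313 (1.28%). These counts include sequences that overlap or are identical, in families many of which are alike in sequence. None of the listed miRNAs had both ACGGA and UCCGU. In the 21 nt miRNAs ACGGA had 0 to 8 bases after it, nearer the 3′ than the 5′ end except in miR1436, where 8 bases lay on either side. In miR1127b-3p and miR1135 it had 6 bases after it. UCCGU had 0 to 8 bases before it and lay nearer the 5′ end. The motif was read on either strand, and a match describes the letters only.

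The 35 miRNAs had 2 lengths, with 24 of 21 nt and 11 of 24 nt. The other 247 known miRNAs had a wider range, with 47.8% of 21 nt, 26.7% of 24 nt and the rest of 20, 22 or 23 nt. U was the first base of 15 of the 35, A of 13, C of 6 and G of 1, and G began 17.4% of the other known miRNAs. Argonaute proteins sort plant small RNAs partly by this first base. The motif was present in 16 of the 24 miRNAs of 21 nt and in 5 of the 11 of 24 nt.

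Bases 2 to 8, called the seed, fell into 31 different sequences, of which 3 were shared by 7 of the miRNAs. In the sequences that follow, capitals mark these bases.
miR5174a: uCCGUUCCuaaauauuugucu
miR6220-5p: uCCGUUCCuaaauauaagucu
miR6224a-5p: uCCGUUCCuaaauauaagucu
miR1117: uAGUACCGguucguggcacgaacc
miR1131: uAGUACCGguugguggcuccaacc
miR1130: uCUGUAAAcuaauauaagagc
miR6197-5p: uCUGUAAAcaaauguaggacg
miR5174a and miR6220-5p differ only by U16A and U17A, counted from the 5′ end with the base of miR5174a first. miR1117 and miR1131 have the same first 11 bases and differ at 3 positions in all. Outside these families, the seed of miR5205b was found in wheat_miR641, and that of miR1136 in wheat_miR381 and wheat_miR1153. Plant miRNAs pair with targets over most of their length, so a shared seed alone does not set shared targets.

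miR1117 and miR1131 were also the only members with an inverted repeat of at least 6 bases inside the mature sequence, which 5 of the 313 other listed miRNAs had. The paired arms are in capitals here.
miR1117: uaguaccGGUUCGUGgCACGAACC
miR1131: uaguaccGGUUGGuggcuCCAACC
The arms of miR1117 were 8 bases long, the longest in the table, and left 1 base between them.

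The transposon-like miRNAs were of middle abundance. Of the 35, 20 exceeded 100 RPM in at least 1 library (57.1%), against 25.6% of the other listed miRNAs, and the highest value was 500.4 RPM. Their median RPM, with the stages in order of growth, was 91.2, 96.7, 160.7 and 44.9. The corresponding medians of the other 247 known miRNAs were 12.9, 12.9, 10.4 and 7.4 RPM. By the sum over the 4 libraries, miR1127a ranked 27 and miR1127b-3p 28 among the 282 known miRNAs. In the same order of stages miR1127a stood at 345.4, 454.1, 485.1 and 356.8 RPM, with green-up highest. miR1127b-3p, its reverse complement over 22 bases, had 367.9, 365.6, 500.4 and 301 RPM. The lowest of the 35 was miR6197-5p, listed only at dormancy, at 2.4 RPM or about 49 reads. The heat map of levels shows 26 miRNAs above 0 in all 4 libraries and 9 with at least 1 library at 0.

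**Figure D1:**
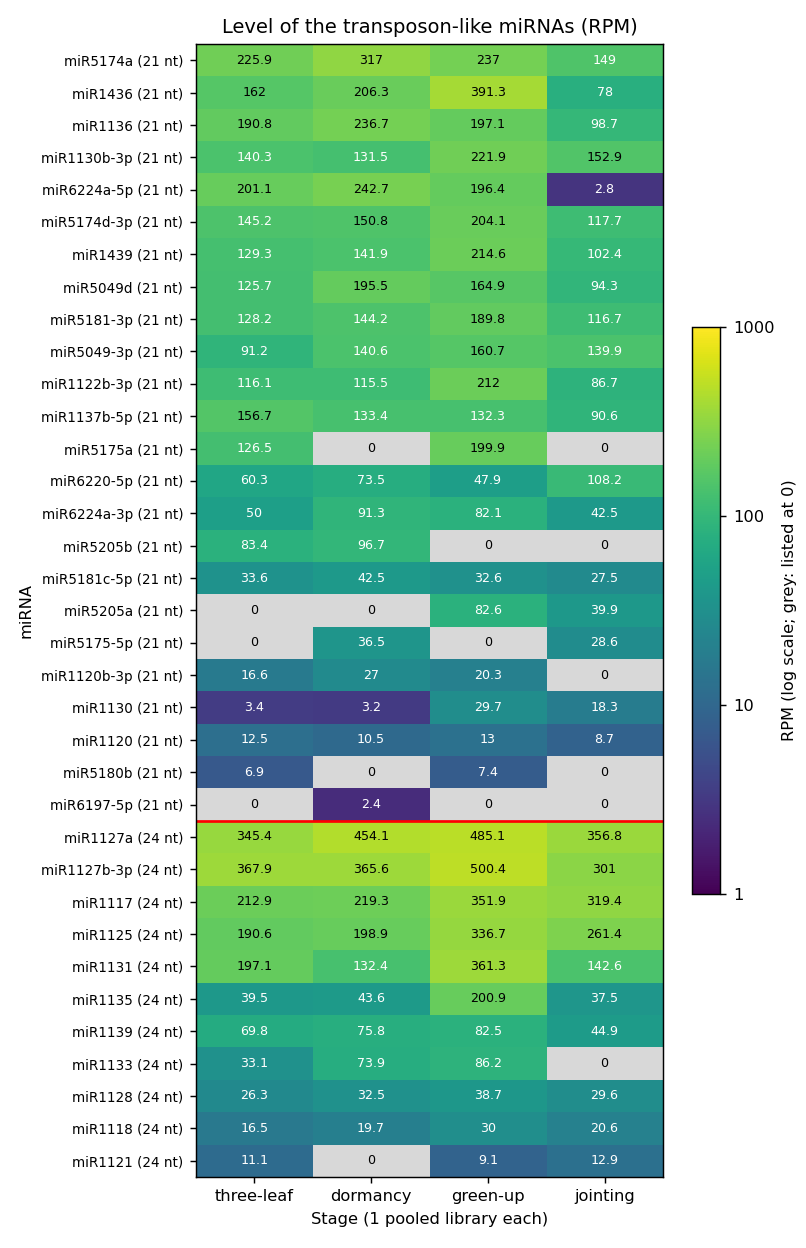
Level in RPM of the 35 transposon-like miRNAs in the 4 libraries, with 21 nt miRNAs above the red line and 24 nt miRNAs below it, each ordered by summed level. Colour is on a log scale and grey marks a value listed at 0, as in miR5175a at dormancy and jointing.

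In RPM, levels varied less over the stages than those of other listed miRNAs, a difference that was smaller under other scalings. For the 26 miRNAs above 0 in all libraries, the highest library exceeded the lowest by a median of 1.83 times. This ratio was 3.49 for the 174 other listed miRNAs above 0 in all libraries. The quartiles were 1.67 and 2.36 for the transposon-like miRNAs and 2.38 and 6.63 for the others. With libraries scaled to the listed miRNAs the medians were 2.25 and 2.59, and with median-ratio scaling 2.32 and 2.60. The smallest ratio in RPM was that of miR1127a (1.40) and the largest that of miR6224a-5p (86.7), whose sequence is listed under a further name.

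Summed over the 35 miRNAs, the three-leaf library had 3716 RPM (95% Wilson interval 3690 to 3742) and the dormancy library 4156 RPM (4128 to 4183). Green-up gave 5520 RPM (5489 to 5551) and jointing 3030 RPM (3006 to 3054). The sum was thus highest at green-up, 1.49 times that of the three-leaf library, and lowest at jointing, at 0.815 times. The summed level of the 313 other listed miRNAs went the other way between dormancy and green-up, with 0.946, 0.732 and 0.474 times the three-leaf sum at the later stages. The 35 miRNAs therefore made up 2.60%, 3.06%, 5.15% and 4.39% of all listed RPM at the 4 stages. Relative to the listed miRNAs, jointing stood above the three-leaf stage and dormancy, whereas in RPM it was the lowest library.

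The 24 miRNAs of 21 nt summed to 2206, 2540, 3038 and 1503 RPM. The 11 of 24 nt summed to 1510, 1616, 2483 and 1527 RPM. Against the three-leaf library, the jointing sum was 0.682 times for 21 nt and 1.01 times for 24 nt. The 66 other known miRNAs of 24 nt stood at 0.155 times, but a single miRNA held 4852.4 of their 6273.4 RPM at the three-leaf stage. Among the 42 of them above 5 RPM in either library, the median log2 change between these stages was -0.38. For the 11 transposon-like miRNAs of 24 nt it was 0.05. As shares of all listed RPM, the 21 nt miRNAs went from 1.54% at the three-leaf stage to 2.18% at jointing. The 11 of 24 nt went from 1.06% to 2.21%.

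**Figure D2:**
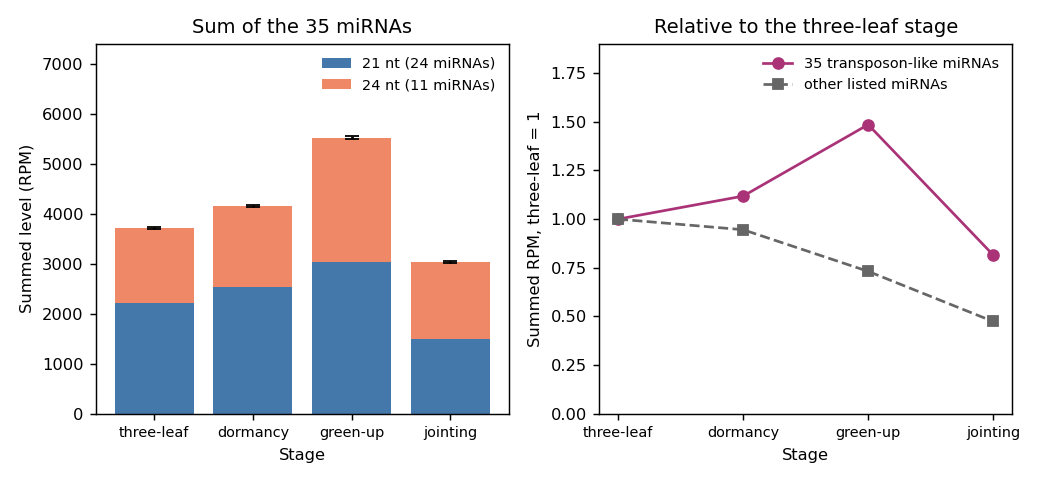
Left, summed RPM of the transposon-like miRNAs by stage, split into 21 nt and 24 nt, with 95% Wilson intervals of the whole sum (counting error only). Right, the summed RPM of the 35 miRNAs and of the 313 other listed miRNAs, with the three-leaf library set to 1: at green-up the former stood at 1.49 and the latter at 0.732.

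Green-up was the library with the highest value for 22 of the 35 miRNAs (62.9%), dormancy for 10, jointing for 2 and the three-leaf stage for 1. Among the other listed miRNAs green-up was the highest library for 60 of 313 (19.2%) and the three-leaf stage for 105. Of the 11 miRNAs of 24 nt, 10 were highest at green-up. The other was miR1121, with 11.1, 0, 9.1 and 12.9 RPM. Of the 24 of 21 nt, 12 were highest at green-up and 10 at dormancy. The only miRNA highest at the three-leaf stage was miR1137b-5p, with 156.7, 133.4, 132.3 and 90.6 RPM. When libraries were scaled to the listed miRNAs, 18 of the 35 were highest at green-up and 13 at jointing, and for 24 nt the counts became 5 and 6.

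Stages were compared by the fold and level thresholds of the study's methods, without its p-value. A miRNA was called higher when its log2 change exceeded 1, and lower when it was below -1, if it had more than 5 RPM in either library. A value of 0 was set to that of 3 reads, 0.137 to 0.146 RPM, and a fold change against it is a lower bound only if the 0 stands for 3 reads or fewer. The smallest listed values were about 4 to 13 reads, so a 0 can also be a value removed by a filter. The comparisons share libraries and are not independent of each other. In any of the 4 comparisons, 16 of the 35 were called (45.7%), 10 of them at least once with both libraries above 0 (28.6%). Of all listed miRNAs, 67.8% were called in any comparison, and 48.6% at least once with both libraries above 0.

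Most of the transposon-like miRNAs changed little between the three-leaf stage and dormancy. Of the 32 that exceeded 5 RPM in either library, 2 were called higher at dormancy and 3 lower, where 10.3% and 16.3% of all listed miRNAs tested were called. The median log2 change was 0.19, against -0.06 for the other listed miRNAs. miR1133, which shares 20 bases with miR1127a, had 33.1 and 73.9 RPM, a log2 change of 1.16 (exact 95% interval 1.03 to 1.29). The other call higher, of miR5175-5p, was from 0 to 36.5 RPM. The calls lower were those of miR1121 (11.1 RPM to 0), miR5175a (126.5 RPM to 0) and miR5180b (6.9 RPM to 0). Below the threshold, miR5049-3p had 91.2 and 140.6 RPM, miR5049d 125.7 and 195.5 RPM, and miR5174a 225.9 and 317 RPM.

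At green-up the transposon-like miRNAs stood mostly above dormancy. Of the 34 tested, 7 were called higher (20.6%) and 2 lower (5.88%). The shares over all listed miRNAs were 17.2% higher and 28.8% lower. In RPM the count of higher calls was thus near the background and that of lower calls below it. Scaled to the listed miRNAs, higher calls became 12 in place of 7, and over all listed miRNAs 57 in place of 43. With median-ratio scaling they became 14 and 65. The median log2 change was 0.35, against -0.44 for the other listed miRNAs. miR1135, which differs from miR1127b-3p by U7A and G13A (base of miR1127b-3p first), had 39.5, 43.6, 200.9 and 37.5 RPM at the 4 stages. The green-up library alone stood high, 4.61-fold above dormancy, with a log2 change of 2.20 (2.10 to 2.31). miR1131 had 132.4 RPM at dormancy and 361.3 at green-up, a log2 change of 1.45 (1.39 to 1.51). miR1130 had 3.2 and 29.7 RPM, or about 66 and 650 reads, a log2 change of 3.21 (2.84 to 3.60). miR1436 was just under the threshold at 0.92 (0.87 to 0.98), with 206.3 and 391.3 RPM.

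The other calls between dormancy and green-up each had a library at 0. miR5175a went from 0 to 199.9 RPM, miR5205a from 0 to 82.6, miR1121 from 0 to 9.1 and miR5180b from 0 to 7.4 RPM. miR5205b went from 96.7 RPM to 0, and miR5175-5p from 36.5 RPM to 0. Without the miRNAs at 0 there were 3 calls higher and none lower. All 11 miRNAs of 24 nt had a log2 change above 0 in this step, with a median of 0.61. The 42 other known miRNAs of 24 nt that were tested had a median of 0.47. Among the 23 tested miRNAs of 21 nt the median was 0.19, with 12 above 0 and 11 below.

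From green-up to jointing, 30 of the 33 transposon-like miRNAs tested had a lower value at jointing. As called lower there were 11 (33.3%), and as higher 2 (6.06%). Over all listed miRNAs the shares were 37.8% lower and 16.4% higher, so the count of lower calls was near the background. The median log2 change was -0.73, against -0.66 for the others. miR1436 had 162, 206.3, 391.3 and 78 RPM at the 4 stages and fell by 2.33 on the log2 scale in the last step (-2.40 to -2.25), or 5.02-fold. miR1135 fell by 2.42 (-2.53 to -2.31) and miR1131 by 1.34 (-1.40 to -1.28). miR1122b-3p, at 212 and 86.7 RPM, fell by 1.29 (-1.37 to -1.21). For miR1439, at 214.6 and 102.4 RPM, the log2 change was -1.07 (-1.14 to -0.99), and for miR5205a, at 82.6 and 39.9 RPM, it was -1.05 (-1.17 to -0.93). Both intervals include the threshold.

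The remaining calls in this step involved 0 or a shared sequence. miR1133 went from 86.2 RPM to 0, miR5175a from 199.9, miR1120b-3p from 20.3 and miR5180b from 7.4 RPM to 0. miR6224a-5p went from 196.4 to 2.8 RPM and miR6220-5p, with the same sequence, from 47.9 to 108.2 RPM. miR5175-5p went from 0 to 28.6 RPM. Steady in this step were miR1117, from 351.9 to 319.4 RPM (-0.14), and miR5049-3p, from 160.7 to 139.9 RPM.

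Over the whole period, from the three-leaf stage to jointing, 7 of the 34 transposon-like miRNAs tested were called lower (20.6%) and 3 higher. Of all listed miRNAs tested, 54.6% were called lower and 16.9% higher. The median log2 change was -0.30, against -1.43 for the other listed miRNAs and -1.25 for all of them. With the miRNAs at 0 left out, 2 were called lower, miR1436 (162 to 78 RPM) and miR6224a-5p (201.1 to 2.8 RPM), and miR1130 higher (3.4 to 18.3 RPM). miR6220-5p, with the same sequence as miR6224a-5p, went from 60.3 to 108.2 RPM, and the log2 change of their sum was -1.24. The log2 change of miR1436 was -1.05, and its interval (-1.14 to -0.97) includes the threshold. For 24 nt the median was 0.05 over 11 miRNAs, and for 21 nt -0.41 over 23. miR1117 had 212.9 and 319.4 RPM (0.59) and miR1125 190.6 and 261.4 RPM (0.46).

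These changes depend on how libraries are scaled. Scaling to the summed RPM of all listed miRNAs adds 0.07, 0.34, 0.64 and 1.05 to every log2 change of the 4 comparisons, in the order given. The median from the three-leaf stage to jointing then becomes 0.75, above 0, and the calls become 12 higher and 6 lower, so that 66.7% were higher in place of 30%. The same scaling moved the higher share of calls over all listed miRNAs from 23.7% to 43.0%. From green-up to jointing the higher share of calls becomes 30% in place of 15.4%, and over all listed miRNAs 47.2% in place of 30.2%. Median-ratio scaling gave the transposon-like miRNAs the same shares.

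**Figure D3:**
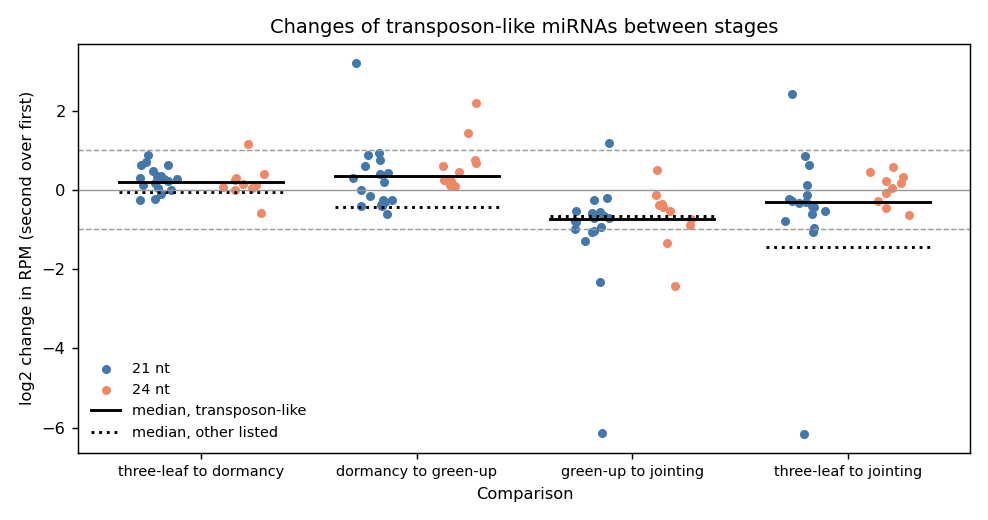
log2 change in RPM of transposon-like miRNAs above 0 in both libraries and above 5 RPM in at least 1, by length, for 4 comparisons. Solid lines are medians over all the transposon-like miRNAs tested (0.19, 0.35, -0.73 and -0.30), including those with a 0, and dotted lines those of the other listed miRNAs (-0.06, -0.44, -0.66 and -1.43).

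Many of these miRNAs are similar in sequence, and the authors allowed a mismatch when they matched reads to names. Sequences were called alike when they shared at least 16 bases without gaps and with at most 1 mismatch, on the same or the opposite strand. By this rule 21 of the 35 fell into 5 groups with 5 other listed miRNAs, joined by 35 pairs, 15 on the same strand and 20 on opposite strands. With 2 mismatches allowed, 21 of them fell into a single group of 28 listed miRNAs. Whether reads were shared between alike names was not tested, and the sum of a group is reported beside the single values.

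The largest group joined miR1120, miR1120b-3p, miR1130b-3p, miR1436, miR1439, miR5181-3p, miR5205a and miR5205b with wheat_miR1401, wheat_miR1559 and wheat_miR84. Its sum was 701.4, 788.6, 1161 and 507.7 RPM at the 4 stages. Between dormancy and green-up it changed by 0.56 on the log2 scale (0.53 to 0.59), and between green-up and jointing by -1.19 (-1.23 to -1.16). The group of the miR5049d sequence and its relatives, 7 miRNAs in all, summed to 905.6, 1035.5, 1140.2 and 483.5 RPM. Its first 2 steps were 0.19 and 0.14, and the last was -1.24. The miR1127a, miR1127b-3p and miR1133 group, with miR7697-5p, summed to 769.2, 920.3, 1072 and 657.8 RPM. miR1137b-5p and miR5174d-3p summed to 301.9, 284.2, 336.4 and 208.3 RPM. All 5 group sums in RPM were highest at green-up, and 4 were lowest at jointing. The exception was miR1117 with miR5387b, at 212.9, 338.4, 640.2 and 462.9 RPM, where miR5387b was 0 in the three-leaf library. miR5387a, which differs from miR5387b by 1 mismatch over 24 bases, had 91.8 RPM in that library and 0 in the others. With it the three-leaf sum was 304.7 RPM, and the log2 change to jointing 0.60 in place of 1.12. Scaling to the listed miRNAs adds 1.05 to log2 changes from the three-leaf stage to jointing. The lowest of the 5 group changes over that period was -0.91, so under this scaling no group was lowest at jointing. miR1117 with miR5387b was then highest at jointing, because 0.64 is added to its change of -0.47 from green-up.

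miR6220-5p and miR6224a-5p, which have the same 21 bases, changed in opposite directions from green-up to jointing. miR6224a-5p had 201.1, 242.7, 196.4 and 2.8 RPM, and miR6220-5p 60.3, 73.5, 47.9 and 108.2 RPM. In the first 3 libraries miR6224a-5p held 76.8% to 80.4% of their sum, and at jointing 2.52%. The sum was 261.4, 316.2, 244.3 and 111 RPM. From green-up to jointing the sum changed by -1.14, where the names taken alone changed by -6.13 and 1.18. How reads were divided between these names is not given in the sources used here.

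miR5175a lies between miR5049d, with which it shares 19 bases, and miR6224a-3p, with which it shares 18. Over the stages it had 126.5, 0, 199.9 and 0 RPM. miR5049d had 125.7, 195.5, 164.9 and 94.3 RPM, and miR6224a-3p 50, 91.3, 82.1 and 42.5 RPM. Of the libraries in which miR5175a was at 0, dormancy had the most miR5049d and jointing the least. Their sum, with miR6224a-3p, was 302.2, 286.8, 446.9 and 136.8 RPM. From the three-leaf stage to dormancy this sum changed by -0.08 on the log2 scale, although miR5175a alone went at least 866-fold lower if its 0 stands for 3 reads or fewer. In the same step the sum with miR5049d alone changed by -0.37 and that with miR6224a-3p alone by -0.95. From dormancy to green-up the sum of all 3 changed by 0.64, and from green-up to jointing, where miR5175a was again at 0, by -1.71.

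miR1133 is shifted by 4 bases from miR1127a and had 33.1, 73.9, 86.2 and 0 RPM. Its loss at jointing, at least 598-fold under the same condition, coincided with a change of miR1127a from 485.1 to 356.8 RPM. Their sum was 378.5, 528, 571.3 and 356.8 RPM and changed by -0.68 in that step, less than the threshold. miR7697-5p, alike to both, was listed at 22.8 and 26.7 RPM at the first 2 stages and at 0 later.

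miR5205a and miR5205b were listed in opposite libraries. miR5205b had 83.4 and 96.7 RPM at the first 2 stages and 0 later, and miR5205a 0, 0, 82.6 and 39.9 RPM. Together they gave 83.4, 96.7, 82.6 and 39.9 RPM, a change of -0.23 from dormancy to green-up. Their sequences differ by at least 5 bases in an overlap of 20, so they are not alike by the rule used here, though both are alike to miR1436. miR5175-5p and miR5175a also never shared a library, yet their best overlap of 19 bases had 10 mismatches. Among the 9 pairs of transposon-like miRNAs with the same number, these 2 had such opposite libraries, and among 56 pairs of other known miRNAs 4 had.

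**Figure D4:**
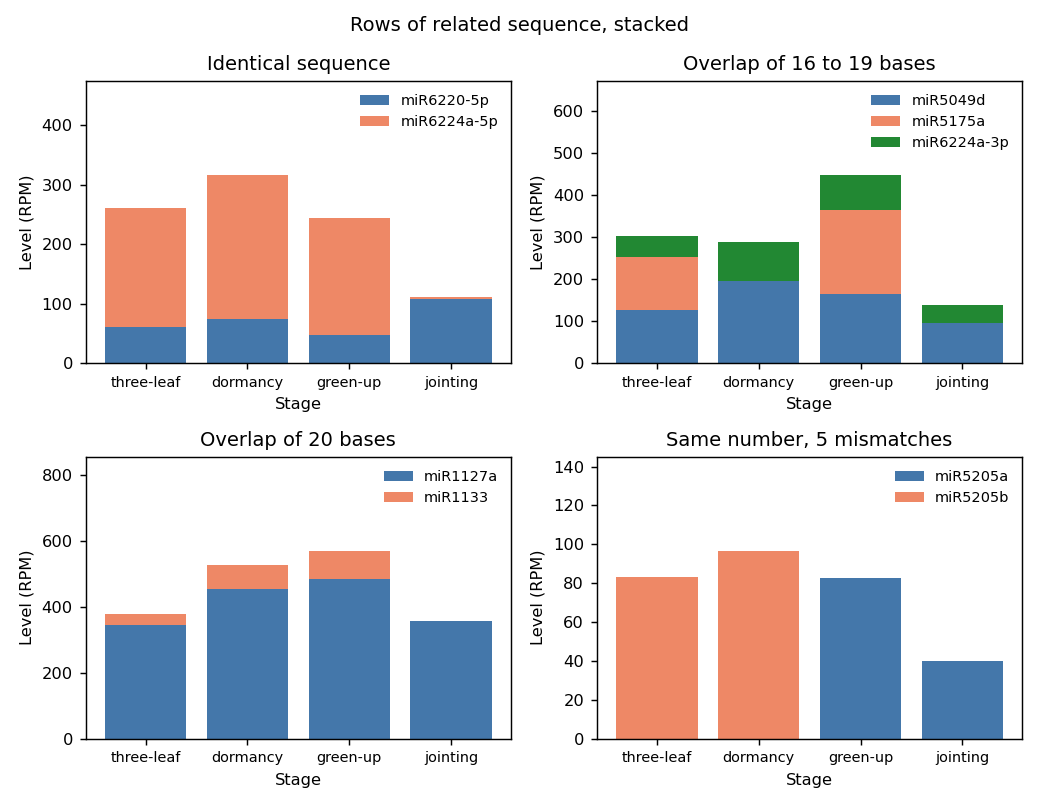
RPM of related miRNAs stacked by stage. miR6224a-5p and miR6220-5p share a sequence and sum to 111 RPM at jointing, nearly all under miR6220-5p; miR5175a is listed only at the three-leaf stage and green-up; miR1133 is at 0 at jointing; and miR5205b gives way to miR5205a at green-up.

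In all, 9 of the 35 miRNAs were at 0 in at least 1 library (25.7%), fewer than the 44.4% of the other listed miRNAs. Their highest library had a median of 36.5 RPM, against 8.7 RPM for the other listed miRNAs with a 0. Of the 9, 5 were in groups of alike sequences, a share near that of all the transposon-like miRNAs, 21 of 35. Each group also held miRNAs above 0 in all libraries, so no group sum could be 0. The 4 outside the groups, miR1121, miR5175-5p, miR5180b and miR6197-5p, had no alike miRNA to be summed with and so remained at 0.

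Small RNAs that are reverse complements of each other were compared where the pairing was exact. miR5174a exceeded its reverse complement miR5049d in every library, by 1.80, 1.62, 1.44 and 1.58 times, and the names pair over all 21 bases. miR6220-5p and miR6224a-5p together exceeded miR1122b-3p by 2.25, 2.74, 1.15 and 1.28 times, with the ratios of the later stages below those of the earlier. miR1127a and miR1127b-3p paired over 22 bases and left 2 bases unpaired at each 3′ end, the geometry that Dicer-like enzymes leave. Their ratio was 0.939, 1.24, 0.969 and 1.19, close to 1 in every library. miR5174a and miR5175a, and miR5181-3p and wheat_miR84, had the same overhangs over 19 paired bases. Of the 11 opposite-strand pairs without a mismatch, these 3 had 2-base 3′ overhangs, 3 had no overhang, 2 had 1-base overhangs and 3 had other ends. The pairs with no overhang count miR1122b-3p with both miR6220-5p and miR6224a-5p, which have the same sequence. miR5181-3p and wheat_miR84 were unequal, with miR5181-3p at 128.2, 144.2, 189.8 and 116.7 RPM, 10.4 to 20.9 times the level of wheat_miR84. miR1137b-5p and miR5174d-3p paired over 20 bases, and their ratio was 1.08, 0.885, 0.648 and 0.770.

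Of the 14 miRNAs outside the groups, miR1125 had 190.6, 198.9, 336.7 and 261.4 RPM, and its later libraries both stood above the earlier ones. miR1131 had 197.1, 132.4, 361.3 and 142.6 RPM, high at green-up. miR1136 had 190.8, 236.7, 197.1 and 98.7 RPM, with jointing low. miR5049-3p was lowest at the three-leaf stage, at 91.2 RPM, and stood between 139.9 and 160.7 RPM later. miR1139 had 69.8, 75.8, 82.5 and 44.9 RPM. miR5181c-5p stood between 27.5 and 42.5 RPM, miR1128 between 26.3 and 38.7 RPM and miR1118 between 16.5 and 30 RPM. miR1130 was low at the first 2 stages and higher at the later ones, and its seed partner miR6197-5p was listed only at dormancy.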

How the data were processed

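Small RNA of wheat crowns was sequenced on a BGISEQ-500 instrument. The authors kept reads of 18 to 30 nt, removed rRNA, tRNA, snRNA, snoRNA and repeat reads with SOAP, merged identical reads, and named a known miRNA where a BLASTN match to the mature plant sequences in miRBase had fewer than 2 mismatches. Tool versions are not given in the sources used here. The removal of repeat reads could lower values of transposon-like miRNAs. The deposited values are RPM (headed TPM), not divided by length and rounded by the authors to 1 decimal for known miRNAs and mostly 2 for wheat_miRNAs.

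Depth was estimated here from the wheat_miRNA values under 200 RPM with 2 decimals, 45 to 50 per library. At the depths given, 100% of these values were whole reads within rounding. At depths well away from those given, between 15000000 and 30000000, at most 58% were. Reads of known miRNAs are thus known to about 1 read. Fold changes, exact binomial intervals of log2 ratios and Wilson intervals (95%) were computed with scipy 1.17.1 and numpy 2.4.6 under Python 3.11.15, and plots were drawn with matplotlib 3.10.9. The script was tested on simulated reads. With 1 pooled library per stage no test between stages was made and DEGseq was not run. The members and lists were chosen with earlier results of these data known. Every member may be named, and other miRNAs only where alike in sequence or in seed, the latter chosen after their values were seen. Genome positions of the miRNAs were not analysed here. Alternatives covered the value of a 0, a pseudocount, the level filter, scaling, the fold threshold and the summing of alike miRNAs. Alternatives chosen after seeing the data asked that the interval of the change leave out 0, and rescaled the ratio of highest to lowest library.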

Additional observations from a re-analysis of the deposited data

How the results depend on the processing

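Of 146 alternative values, 99 stayed within bounds, 45 moved and 2 changed sign. The bounds were 1.5 times for a count and the counting interval for a level. For a median they were the medians of the single-miRNA lower bounds and upper bounds, which is not an interval of the median itself. The value set for a 0, the pseudocount and the added condition on the interval moved none of the values. The steps run from the three-leaf stage to dormancy, then to green-up, then to jointing, and the whole period spans all 3. With miRNAs at 0 in either library left out, higher and lower calls became 1 and 0 in the first step, 3 and 0 in the second step, 1 and 7 in the third step, and 1 and 2 over the whole period. A filter of 20 RPM left 1 lower call in the first step. Scaled to the listed miRNAs, higher calls became 12 in the second step and 12 over the whole period, and lower calls 7 in the third step. Median-ratio scaling gave 14, 12 and 7. The same counts over all listed miRNAs were 43, 44 and 90 in RPM. They became 57, 71 and 56 when scaled to the listed miRNAs, and 65, 71 and 58 with median-ratio scaling. Under these scalings the median log2 changes became 0.69 and 0.79 in the second step, -0.10 and -0.15 in the third step, and 0.75 and 0.76 over the whole period, the last pair reversed in sign. The median ratio of highest to lowest library, 1.83 in RPM, became 2.25 and 2.32, an alternative chosen after seeing the data. The summed levels became 2958, 3482, 5850 and 4996 RPM, or 2834, 3251, 5848 and 4793 RPM. At a 1.5-fold threshold there were 6 higher calls in the first step, 14 in the second step and 6 over the whole period, with 20 lower calls in the third step and 11 over the whole period. At 4-fold, 1 higher call was left in the first step, and 1 higher and 7 lower in the third step. Summing the identical sequences left 1 higher call in the third step. Summing groups of alike miRNAs left 1 higher call in the first step, 1 lower in the second step, 1 higher and 5 lower in the third step, and 1 lower over the whole period, where the median became -0.15, and it left 4 miRNAs or groups at 0. Part of this follows from fewer units being counted, and otherwise the cause was not tested. No paired analysis was possible because each stage was 1 pooled library. Reads are known to about 1 read, which limits only the lowest values. Calls over all listed miRNAs are given here for the scalings only, so the other changed counts stand without a background.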
